A study of Caenorhabditis elegans with 2 samples.

Results

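The insulin and insulin-like growth factor signalling pathway of the nematode Caenorhabditis elegans was examined in regions bound by the hypoxia-inducible factor HIF-1. The 9 genes chosen were its core components from receptor to transcription factor: daf-2, age-1, aap-1, pdk-1, akt-1, akt-2, sgk-1, daf-18 and daf-16, of 19973 protein-coding genes of the annotation. A region was counted at a gene when its summit, the position of its highest signal, lay between 5000 bp upstream of the gene and the gene's end. By that rule, 18 of the 3531 reproducible HIF-1 regions lay at these genes. The rule uses gene names and positions and no signal, but the genes were proposed with earlier results of these data known.

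HIF-1 was mapped by ChIP-seq in whole C. elegans of mixed sex at the L4 larval stage, which were synchronized as starved L1 larvae and collected 52 hours later. The single group was strain OR3349, a stable transgenic line that expresses HIF-1 fused at its C terminus to GFP and FLAG, and the immunoprecipitation used an antibody against GFP. It comprised 2 biological replicates, and no untreated or mutant group, control library or second condition was analysed here. Not given in the sources used here are the oxygen level, the copy number of the transgene and whether it replaced endogenous HIF-1. Whole animals were used, so strong binding in a few cells and weak binding in many cannot be told apart.

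In C. elegans, insulin-like peptides act on the receptor DAF-2, which activates a phosphatidylinositol 3-kinase made of the catalytic subunit AGE-1 and the adaptor subunit AAP-1. Its lipid product recruits and activates the kinases PDK-1, AKT-1 and AKT-2, with SGK-1 as a related kinase in the same cascade, and the lipid phosphatase DAF-18 removes that product. Active kinases keep the FOXO transcription factor DAF-16 out of the nucleus, so that lower signalling lets DAF-16 act on genes of longevity, dauer formation and stress resistance. HIF-1 is the transcription factor that is stabilised when oxygen is low, and it binds hypoxia response elements with the core ACGTG or GCGTG. DAF-16 binds the element GTAAACA.

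HIF-1 regions lay at 7 of the 9 genes, and daf-16 alone held 8 of the 18 regions. Lists of different kinds were used. The IDR list holds the regions that passed the authors' irreproducible discovery rate threshold over both replicates, and the candidate lists hold 30000 regions each for the pooled data and for each replicate, background included. An IDR summit was present at daf-2, aap-1, pdk-1, akt-1, akt-2, daf-18 and daf-16, and none was present at age-1 or sgk-1. The share of 77.8% stood beside 23.7% of all protein-coding genes. All 9 windows, at 7.3 to 51.3 kb, were longer than the median of 7.03 kb over all genes, and the share with a region is higher among genes with longer windows, so each gene is set below beside genes whose window had a length within 10% of its own. Per length, the 9 windows held 1.16 IDR summits per 10 kb, against 0.393 over the windows of all protein-coding genes. Without daf-16 the value was 0.808 per 10 kb. With 1 group, and genes proposed in that way, no test was made.

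The regions were of middle and low strength in the IDR list. The signal is the authors' own value for each region relative to a control, and it is used only to describe and rank regions within one list. At the 18 member regions it ran from 97.8 to 213 with a median of 149, and ranks within the IDR list ran from 1124 to 3388, where rank 1 is the strongest. All 3531 IDR regions ran from 95.1 to 7830 with a median of 158. Of the member regions, 10 lay below that median and 8 above it, and the strongest of them stood at rank 1124.

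**Figure D1:**
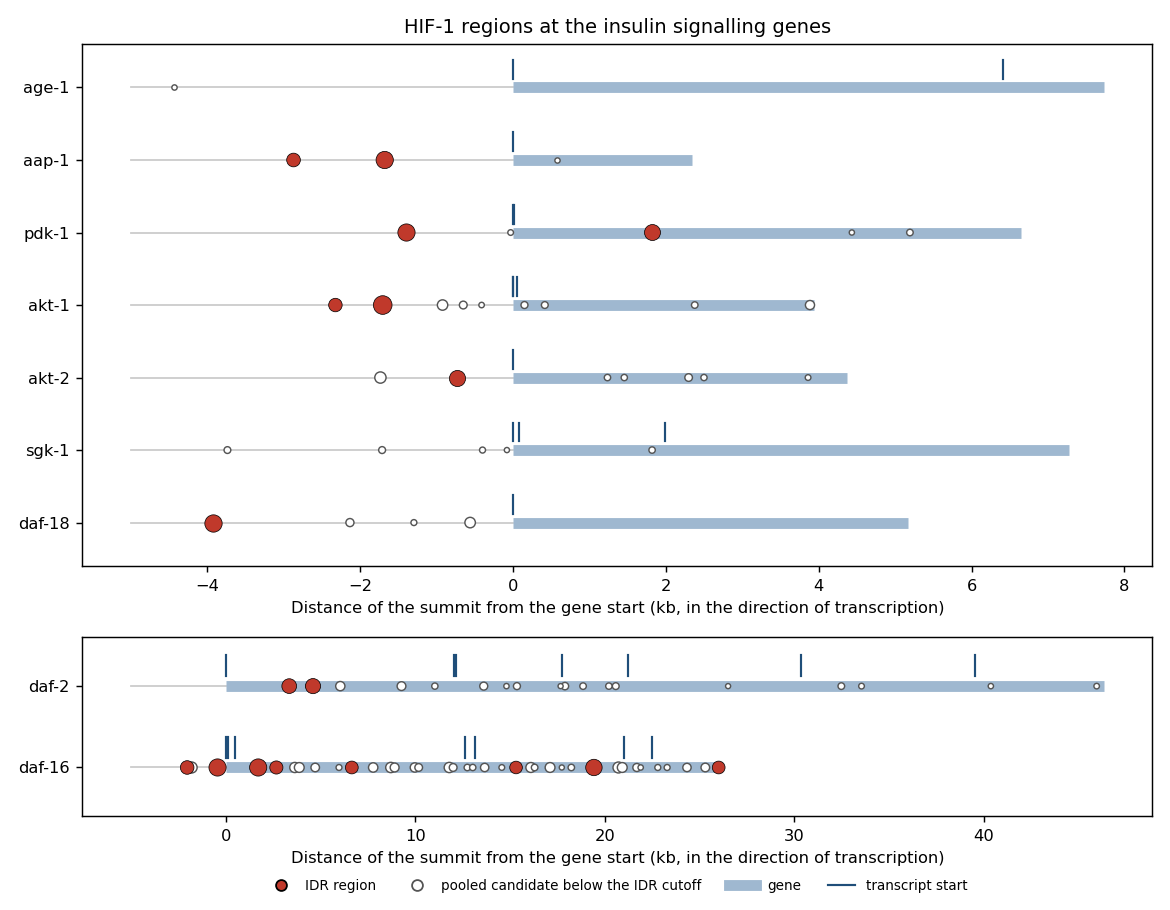
Positions of HIF-1 summits along the 9 genes, in kb from the gene start in the direction of transcription, with the grey line for the 5000 bp upstream. Red points are IDR regions and open points pooled candidates below the IDR cutoff, with larger points for higher signal. The 8 red points of daf-16 spread over the whole gene and its upstream flank, the 2 of daf-2 lie in its 5' part, and age-1 and sgk-1 have open points only.

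The sequences under the summits show which regions at the signalling genes held the hypoxia response core and which did not. Each is the 101 bases centred on the IDR summit, read 5' to 3' on the gene's own strand from the RefSeq genome of assembly WBcel235, which is ce11. Capitals mark ACGTG or GCGTG on either strand, so that CACGT and CACGC are the same elements read from the other strand. The first 4 lines hold a core, and the last 2 hold none and show the summit in the akt-2 promoter and the summit upstream of pdk-1.
akt-1 region 1 (chrV:10246530-10246630, plus strand): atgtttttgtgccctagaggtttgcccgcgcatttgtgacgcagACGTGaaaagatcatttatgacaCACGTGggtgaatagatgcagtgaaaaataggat
akt-1 region 2 (chrV:10247149-10247249, plus strand): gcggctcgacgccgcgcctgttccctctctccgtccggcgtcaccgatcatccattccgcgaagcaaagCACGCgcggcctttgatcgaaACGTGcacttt
daf-2 region 2 (chrIII:3036192-3036292, minus strand): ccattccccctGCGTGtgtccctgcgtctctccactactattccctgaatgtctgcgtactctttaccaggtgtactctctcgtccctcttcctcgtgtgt
daf-18 region 1 (chrIV:429058-429158, minus strand): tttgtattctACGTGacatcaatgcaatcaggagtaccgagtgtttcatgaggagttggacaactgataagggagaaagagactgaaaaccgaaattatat
akt-2 region 1 (chrX:14146910-14147010, plus strand): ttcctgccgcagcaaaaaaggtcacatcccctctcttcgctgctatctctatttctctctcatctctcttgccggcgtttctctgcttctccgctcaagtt
pdk-1 region 1 (chrX:1319899-1319999, plus strand): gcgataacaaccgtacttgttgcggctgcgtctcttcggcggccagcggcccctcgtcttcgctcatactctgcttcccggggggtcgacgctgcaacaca

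The hypoxia response core was found at 5 of the 18 member summits, 27.8%, against 42.1% of all 3531 IDR summits and 14.6% of equally wide windows 500 bp to either side of the IDR summits. It was present at both akt-1 summits, at 1 of 2 daf-2 summits, at the daf-18 summit and at 1 of 8 daf-16 summits. In the first akt-1 sequence, the nearest of 3 matches lay 4 bp from the summit, and a palindrome, CACGTG, lay 20 bp from it. That palindrome holds ACGTG on both strands, so it makes up 2 of the 3 matches, and it was found at no other member summit. The matches at daf-2 and daf-18 lay farther out, 37 and 38 bp from the summit. The count rested on the width searched, with 2 summits within 25 bp, beside 25% of all IDR summits, and 9 within 100 bp, beside 59.8%.

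The akt-2 sequence is rich in CTCTC, which it holds 4 times. The pentamer CTCTC was searched after the sequences had been seen, on both strands. It was present at 9 of the 18 member summits, beside 40.3% of all IDR summits and 11.9% of their flanks. Of the 13 member summits without the hypoxia response core, 7 held CTCTC, 53.8%, beside 43.6% of all IDR summits without the core. The DAF-16 element GTAAACA was present at 1 member summit, in the daf-16 promoter, beside 2.12% of all IDR summits and 1.22% of their flanks. The base composition of the member windows was like that of the rest, with a median GC content of 45.5% against 46.5% over all IDR summits. The member windows ranged from 34.7% to 63.4%, and the highest value was shared by the pdk-1 upstream sequence and the second akt-1 sequence above.

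Few of the regions lay at a promoter of the gene they were counted for. Promoter windows covered the 1000 bp before and the 200 bp after a transcript start. Only akt-2 and daf-16 had an IDR summit in their own promoter window, 2 of 9 genes or 22.2%, beside 12.2% of all protein-coding genes. With 2000 bp before the start, aap-1, akt-1 and pdk-1 joined them, 5 of 9 genes beside 15.6% of all. Of the 18 summits, 5 lay in the promoter window of any gene, 27.8%, against 56.9% of all IDR summits, and 3 of these 5 were at promoters of neighbouring genes. Introns held 8 summits, 44.4%, against 23.6% of all IDR summits. Of the 8, 5 lay in daf-16 and 2 in daf-2, the longest of the 9 genes. Another 8 of the 18 summits were intergenic, 1 lay in a 5' UTR and 1 in a 3' UTR. An annotated non-coding RNA gene covered 8 of the 18 summits, 44.4%, beside 10.6% of all IDR summits. These were not 8 separate loci, since both daf-2 summits lay in 1 such gene and several of the 8 lay at daf-16. Of the 18 summits, 0 lay within 250 bp of a tRNA gene, beside 4.98% of all.

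Nearly all of the regions were located in both replicates, and some ranked alike in both while others did not. A region counted as found in a replicate when that replicate had a candidate summit within 100 bp. Replicate 1 held all 18 and replicate 2 held 17, so 17 of 18 were found in both, 94.4%, beside 96.1% of all IDR regions. IDR regions were selected for agreement between these same replicates, so a high share follows from that selection and is not particular to these genes. In replicate 1 the signals at these summits were 33.2 at the lowest, 59.6 at the median and 107 at the highest, with ranks of 727 to 5543 among 30000. In replicate 2 they were 53.3, 97.4 and 135, with ranks of 1089 to 4067. The replicate summits lay 0 to 62 bp from the pooled summit. When each replicate was limited to its strongest 3531 regions, 11 of the 18 remained in both, 61.1%, beside 69.8% of all IDR regions.

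**Figure D2:**
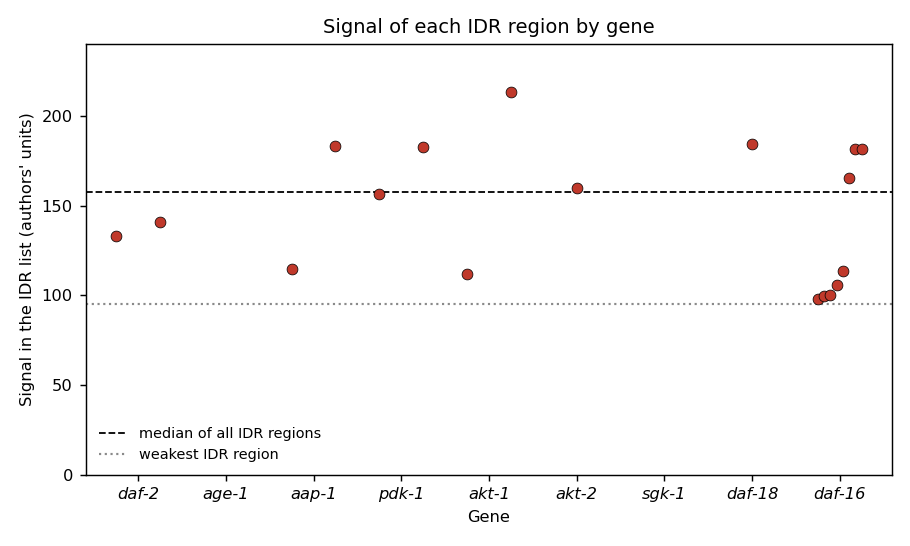
Authors' signal in the IDR list of each of the 18 member regions, by gene, with a dashed line at the median of all 3531 IDR regions (158) and a dotted line at the weakest of them (95.1). The akt-1 region at 213 is the highest, age-1 and sgk-1 have none, and 5 of the 8 daf-16 regions lie at 113 or lower.

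**Figure D3:**
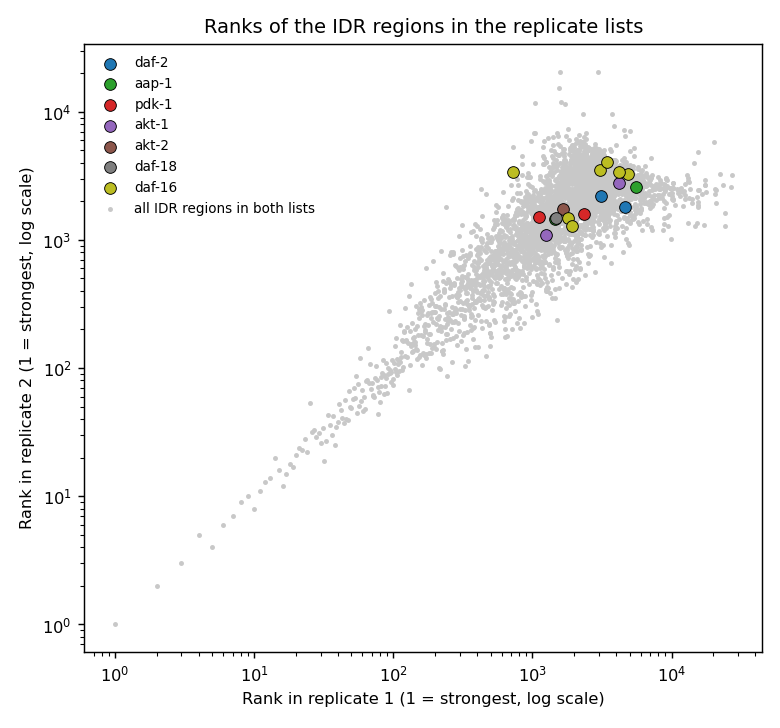
Rank of each IDR region in the candidate list of replicate 1 and of replicate 2, on log axes, with all IDR regions found in both in grey and the 17 member regions in colour by gene. The member regions lie in the middle and weaker part of the cloud, and the daf-16 point at rank 727 in replicate 1 and 3366 in replicate 2 stands off the diagonal. The stronger aap-1 region lies under the daf-18 point.

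At daf-2 (WBGene00000898, chrIII:2994514-3040846, minus strand), the gene of the receptor, HIF-1 regions lay inside the gene and away from its promoters. The gene has 7 annotated transcript starts, and both regions lay in an intron of Y55D5A.5c.1, the transcript that starts farthest upstream, at 3349 and 4604 bp downstream of its start. Both summits also lay within linc-143, an annotated long non-coding RNA gene (chrIII:3035541-3037543). The region nearer the start (chrIII:3037289-3037704) had a signal of 133 and rank 2247, and the other (chrIII:3036034-3036449) had 141 and rank 2096.

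The replicates placed these 2 daf-2 regions in opposite order. The nearer one had 36.9 in replicate 1, rank 4619, and 97.4 in replicate 2, rank 1791. The farther one, which holds the GCGTG printed above, had 46.8 in replicate 1, rank 3119, and 84.8 in replicate 2, rank 2208. The difference between them was therefore not reproduced between the replicates, and only the farther one was among the 3531 strongest regions of replicate 1. A further 17 pooled candidates lay below the IDR cutoff across the 51.3 kb window, of which 2 were found in both replicates, and the strongest had a signal of 52.3. Only 8 genes had a window of like length. Of these, 4 held an IDR summit, 50%, and 2 of the 8 held 2 or more.

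At age-1 (WBGene00000090, chrII:11519328-11527054, minus strand), the gene of the catalytic subunit of the phosphatidylinositol 3-kinase, no IDR region was present. Among genes of like window length, 36.3% of 919 held one. The only pooled candidate in its 12.7 kb window lay 4431 bp upstream, where its signal of 17.3 gave rank 27640 of 30000. It was found in replicate 2 at 15.9 and not in replicate 1. Replicate 1 had 4 candidates of its own in the window, the strongest inside the gene, 7361 bp from its start, at 20.8 and rank 13109. The nearest IDR summit lay 7958 bp upstream of age-1, outside the window. That region (chrII:11534855-11535185) had a signal of 467 and rank 234, which is stronger than any region at the 9 genes, and its summit was 533 bp upstream of another gene, Y62F5A.12.

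At aap-1 (WBGene00000001, chrI:5107843-5110183, plus strand), the gene of the adaptor subunit, both regions lay upstream and at the starts of other genes. The farther one (chrI:5104762-5105177) was 2873 bp upstream of aap-1 and 59 bp upstream of the start of chp-1. Its signal was 115, rank 2755, with 33.2 in replicate 1 and 75.4 in replicate 2. The nearer one (chrI:5106083-5106292) was 1680 bp upstream of aap-1, 41 bp upstream of the start of use-1 and in the promoter windows of use-1 and pas-3, which encodes a proteasome subunit. Its signal was 183, rank 1426, with 74.2 in replicate 1 and 111 in replicate 2.

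The region at use-1 ranked above the one at chp-1 in both replicates, at 1455 against 5543 in replicate 1 and at 1450 against 2584 in replicate 2. Neither lay in a promoter window of aap-1 itself. Only the use-1 one was among the 3531 strongest regions of replicate 1. The window of aap-1 thus held 2 IDR summits, whereas 21.4% of the 6117 genes with a window of like length held any and 4.41% held 2 or more. The remaining pooled candidate in the window, at 17.0, was not found in both replicates.

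At pdk-1 (WBGene00003965, chrX:1321344-1327986, plus strand), the gene of the kinase that phosphorylates the AKT kinases, 1 region lay upstream and 1 within the gene. The upstream region (chrX:1319900-1320067), 1395 bp before the gene, had a signal of 182 and rank 1435, with 85.7 in replicate 1 and 109 in replicate 2. The region inside an intron (chrX:1322960-1323375), 1815 bp downstream of the nearest start, had 157 and rank 1789, with 56.1 in replicate 1 and 105 in replicate 2. The upstream region ranked higher in both replicates, and neither summit held the hypoxia response core or CTCTC. Of 1179 genes of like window length, 33.6% held an IDR summit and 8.74% held 2 or more.

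At akt-1 (WBGene00000102, chrV:10248905-10252845, plus strand), which encodes an Akt kinase that phosphorylates DAF-16, 2 intergenic regions lay 619 bp apart upstream of the gene. The nearer one (chrV:10247064-10247319), 1706 bp upstream, had the highest signal of the 18 member regions, 213 at rank 1124. It had 81.6 and rank 1242 in replicate 1, and 135 and rank 1089 in replicate 2. The farther one (chrV:10246372-10246787), 2325 bp upstream, had 112 and rank 2847. It had 39.1 and rank 4186 in replicate 1, and 71.8 and rank 2753 in replicate 2.

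The nearer akt-1 region therefore ranked above the farther one in both replicates. The farther one held the 3 core matches shown above, of which the palindrome makes up 2, 1 on each strand. The nearer one held 2 matches at 21 bp or more from its summit, so the core stood at 2 separate places in each region. The nearer summit lay in the non-coding RNA gene C12D8.25. Among the 3531 strongest regions of replicate 1 alone, akt-1 had 1. The akt-1 window held 2 IDR summits and 9 pooled candidates. Among 2908 genes of like window length, 28.6% held an IDR summit, 7.43% held 2 or more, and 3.75% held 9 or more pooled candidates. The strongest candidate below the cutoff, with a signal of 66.3, lay 923 bp upstream in the akt-1 promoter window and was found in both replicates, at 39.8 in replicate 1 and 28.5 in replicate 2.

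At akt-2 (WBGene00000103, chrX:14147700-14152070, plus strand), which encodes another Akt kinase, the single IDR region was in the gene's own promoter window. The region (chrX:14146905-14147008) is 104 bp wide, the narrowest of the 18, and its summit was 740 bp upstream of the start. Its signal was 160, rank 1740, with 69.4 in replicate 1, rank 1653, and 99.1 in replicate 2, rank 1743. The ranks were alike in the replicates, though their summits lay 39 and 41 bp from the pooled one. Another candidate 1736 bp upstream, at 78.1 and rank 4460, was the strongest below the IDR cutoff at any of the 9 genes. It was found in replicate 1 at 32.0 and in replicate 2 at 37.1. Of 2463 genes of like window length, 29.6% held an IDR summit.

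At sgk-1 (WBGene00004789, chrX:16254842-16262122, minus strand), the related kinase, no IDR region was present, beside 35.5% of 975 genes of like window length. Its 5 pooled candidates had signals of 16.4 to 29.2, all in the weaker part of the list with ranks of 15880 to 28885. Of these, 2 were found in both replicates. One lay 400 bp upstream, in the promoter window of sgk-1 and in a coding exon of mua-6, at 22.2 in the pooled list, 14.96 in replicate 1 and 9.89 in replicate 2. The nearest IDR summit lay 9200 bp upstream of sgk-1 (chrX:16271114-16271529), with a signal of 98.1 near the bottom of the list at rank 3374.

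At daf-18 (WBGene00000913, chrIV:420011-425177, minus strand), the gene of the phosphatase that opposes AGE-1, the single region lay far upstream at another gene. Its summit was 3931 bp upstream of daf-18 and in the 5' UTR of Y66H1A.5, 25 bp downstream of that gene's start. The region (chrIV:429018-429196) had a signal of 185 and rank 1402, the second highest of the 18. In replicate 1 it had 73.8 and rank 1471, and in replicate 2 it had 109.6 and rank 1486, so both replicates placed it alike. A candidate below the cutoff, 67.6 at 562 bp upstream, lay in the shared promoter windows of daf-18 and garr-1. It was found in both replicates, at 16.1 in replicate 1 and 49.4 in replicate 2. Of 1934 genes of like window length, 31.3% held an IDR summit.

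At daf-16 (WBGene00000912, chrI:10750498-10776703, plus strand), the gene of the FOXO transcription factor, HIF-1 regions were spread over the whole locus. It has 11 transcripts from 7 starts, and its 31.2 kb window held 8 IDR summits, 2.56 per 10 kb. Of 73 other genes with a window of like length, 38.4% held an IDR summit and 2 genes, 2.74%, held 8 or more. These were ppfr-1 with 10 and fkh-7 with 8, named after their values were seen. The daf-16 window held 38 pooled candidates, which none of the 73 reached, though fkh-7 had 37, and their median was 9. Some of the daf-16 candidates overlapped one another, so this is a count of summits and not of separate regions. Over all 19973 genes, 13 had 8 or more IDR summits, daf-16 included, and the most was 13, at ZK470.2.

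**Figure D4:**
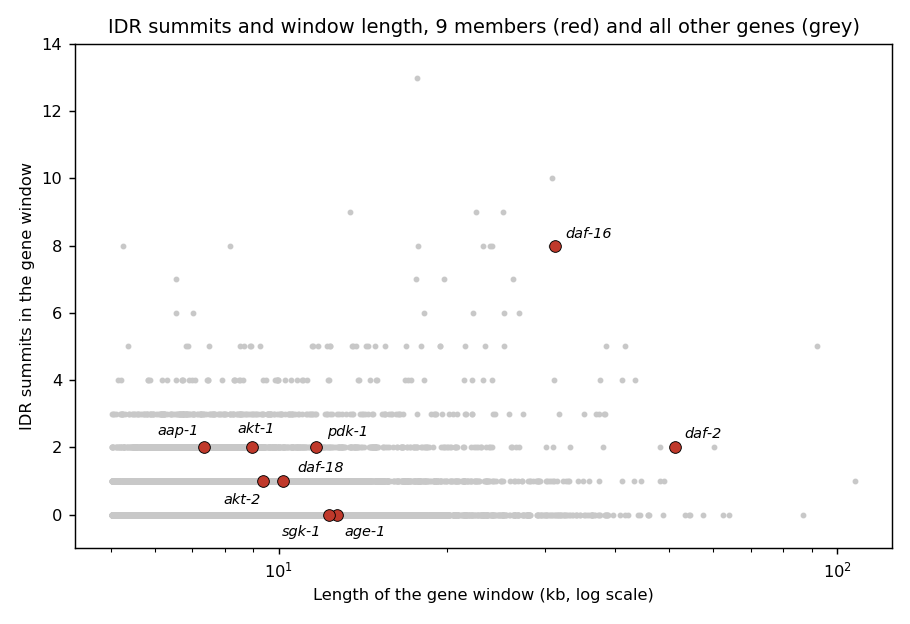
Number of IDR summits of each protein-coding gene against the length of its window in kb on a log axis, all genes in grey and the 9 insulin signalling genes in red. The point of daf-16 at 8 summits and 31.2 kb lies above most genes of like length, while daf-2, with the longest window of the 9 at 51.3 kb, has 2.

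The 3 strongest daf-16 regions lay at both ends of the series of transcript starts. The promoter region (chrI:10749857-10750272), 433 bp upstream of the start of R13H8.1h.1, had a signal of 181 and rank 1442. It had 66.3 in replicate 1, rank 1793, and 110.2 in replicate 2, rank 1475. The summit lay 9 bp from a GTAAACA, the element that DAF-16 itself binds. An intronic region (chrI:10752117-10752315), 1250 bp downstream of the start of R13H8.1d.1, had a like signal of 182 and rank 1441, with 63.5 in replicate 1 and 121 in replicate 2.

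A second intronic region (chrI:10769716-10770131), 1584 bp upstream of the start of R13H8.1a.1, had a pooled signal of 166 and rank 1659. The replicates ranked it far apart, with 107 and rank 727 in replicate 1, the highest of all member regions there, against 61.8 and rank 3366 in replicate 2.

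The other 5 daf-16 regions lay in the lower part of the IDR list, with signals of 97.8 to 113 and ranks of 2792 to 3388. The intergenic one 2037 bp upstream (chrI:10748253-10748668) was the only member region not found in both replicates. It had 63.1 in replicate 1, and the nearest summit of replicate 2, at 62.5, lay 119 bp away, beyond the 100 bp allowed. That replicate 2 summit lay 118 bp from another pooled candidate, 1800 bp upstream, so it cannot be assigned to either. Introns held 3 more, at 2670, 6651 and 15317 bp from the gene start, and the last lay in the 3' UTR at 26009 bp. The region at 6651 bp was the only one at daf-16 with the hypoxia response core, 24 bp from its summit. The median signal was 109.7 at the 8 daf-16 regions and 158 at the 10 regions of the other members, of which 4 held the core.

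**Figure D5:**
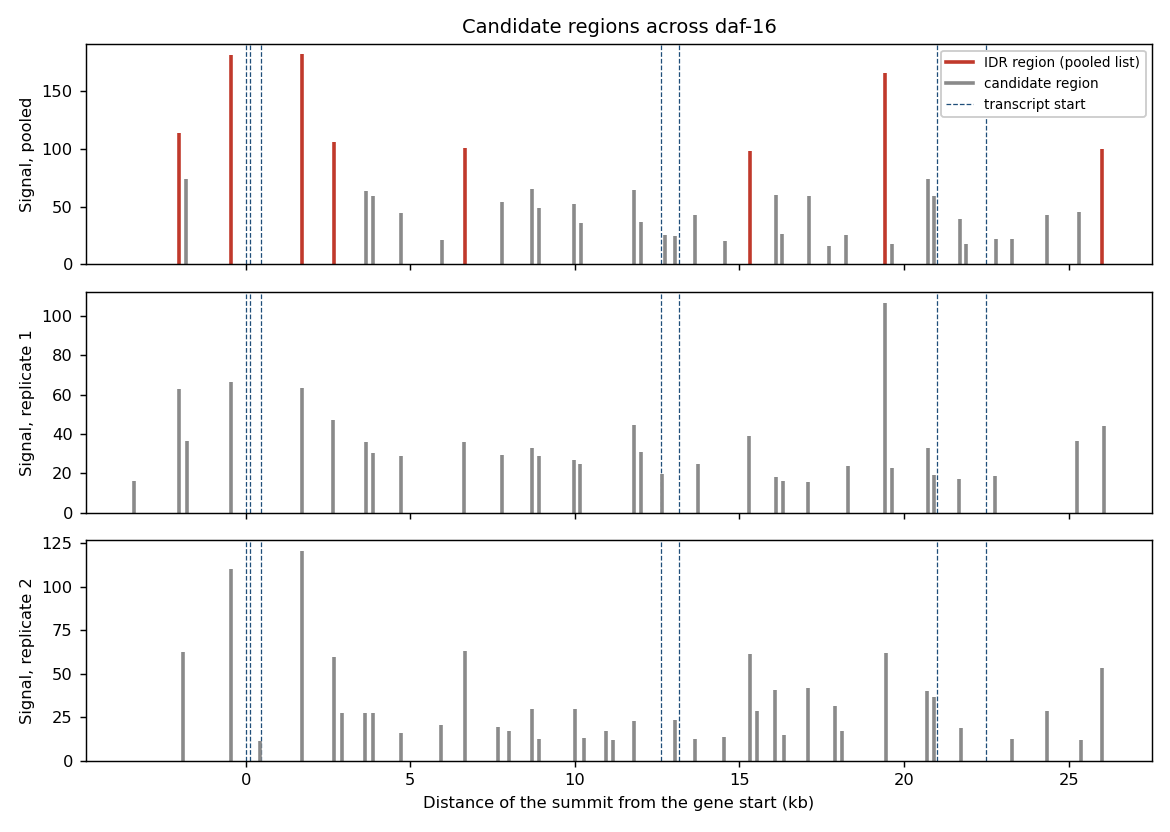
Authors' signal of HIF-1 summits along daf-16 against distance from the gene start in kb, in 3 panels for the pooled list, replicate 1 and replicate 2, each on its own scale. IDR regions are red in the pooled panel, other candidates grey, and transcript starts are dashed lines. The IDR regions reach 182 near the upstream starts, and weaker candidates lie between them along the gene.

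Below the IDR cutoff, the 9 windows held 73 pooled candidates, of which 26 were found in both replicates, 35.6%, beside 28.1% of all 26469 candidates below the cutoff. The share was uneven between the genes. At daf-16, 16 of 30 were found in both, 53.3%, and at the other members 10 of 43. Several of the 16 overlapped a neighbour, so they are not 16 separate places. Candidates were also denser at daf-16, with 12.2 pooled per 10 kb against 4.28 in the other member windows. Whether that density bears on the share was not tested. Of the 16 at daf-16, 2 overlapping candidates lay 288 and 89 bp upstream of the R13H8.1a.1 start, with signals of 73.6 and 59.2. Another lay 810 bp upstream of the R13H8.1b.1 start with 64.4. Every one of the 9 genes had at least 1 pooled candidate, as did 55.7% of all protein-coding genes. The 9 windows were longer than the median over all genes. Genes of like window length held a median of 1 candidate for aap-1 and up to 15.5 for daf-2. The only pooled candidate at age-1 was near the bottom of the list, at rank 27640 of 30000. The candidate list includes background, so such regions are weaker evidence of binding than the IDR regions.

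Other genes of the pathway were counted in lists that were likewise chosen with earlier results known. Their windows differ in length from those of the core members, and no difference between lists was tested. Of 39 insulin-like peptide genes, the ligands of DAF-2 or its antagonists, 2 had an IDR summit in their window, 5.13%, beside the 23.7% of all genes given above. They were ins-39, at 211 and 624 bp upstream in its promoter window, and ins-32, at 109.8 and 4966 bp upstream. With the 3531 strongest regions of replicate 1 alone, 1 ligand gene had a summit, beside 23.1% of all genes. The ligand genes are short, with a median window of 5.66 kb. Of 5 genes that act in peptide processing and release, 3 had a summit, namely egl-21 and egl-3, which encode neuropeptide-processing enzymes, at 403 and 230, and unc-31, which acts in dense-core vesicle release, at 158. The 3 of 5 stand beside 23.7% of all genes, and the median window of these genes, 9.58 kb, was longer than the 7.03 kb over all genes. Only egl-21 of the 5 had a summit in a promoter window, 20%, beside 12.2% of all genes.

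Regulators of the pathway and of DAF-16 held summits at 10 of 22 genes, 45.5%, beside 23.7% of all genes, and 6 had one in a promoter window, 27.3%, beside 12.2%. Their windows were longer, with a median of 9.77 kb against 7.03 kb over all genes. The strongest were at cbp-1, which encodes an acetyltransferase coactivator, at 581, and at ftt-2, which encodes a phosphoserine-binding protein that retains DAF-16 in the cytoplasm, at 503. Next came smk-1, a DAF-16 cofactor, at 369, rict-1, a component of a target-of-rapamycin kinase complex, at 302, and pptr-1, a phosphatase subunit that acts on AKT-1, at 289. All 5 signals were above the highest value at the core members, but smk-1 and pptr-1 had no summit in a promoter window. Of 19 reported DAF-16 target genes, 4 had a summit, 21.1%, beside 23.7% of all genes, and 3 had one in a promoter window, 15.8%, beside 12.2%. The 4 were dod-3 at 381, icl-1, a glyoxylate cycle enzyme, at 373, sip-1 at 143 and lea-1 at 132. Of these, icl-1 had no summit in a promoter window. With the 3531 strongest regions of replicate 2 alone the targets numbered 7, beside 23.9% of all genes. With those of replicate 1 alone they numbered 6, beside 23.1%, so this count differed between the lists.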

How the data were processed

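HIF-1 ChIP-seq was analysed from 2 biological replicates of 1 group, so no test between conditions was possible. Per the file lists of the samples, the authors called regions against a control alignment, kept peaks and background in the candidate lists that entered the irreproducible discovery rate (IDR) procedure, and derived the optimal IDR list from both replicates. Not given in the sources used here are aligner and peak caller. The deposited signal of each region is the authors' value and is not scaled between lists. Without read counts in the files, the depth is unknown.

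Positions are from the ce11 lists, which matches assembly WBcel235, and the ce10 lists were not used. Summits were placed on genes of Ensembl release 115 with Python 3.11.15, numpy 2.4.6 and pandas 2.3.3, and sequences came from the RefSeq genome. Gene windows began 5000 bp upstream of a gene, promoter windows covered 1000 bp before and 200 bp after a transcript start, summits within 100 bp were shared, and motifs were searched within 50 bp of a summit on both strands. The code was tested on simulated data.

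All members, other protein-coding genes with a promoter window or the nearest start at a member summit, and up to 5 genes of each other pathway list with the highest IDR signal were named. Members and lists were chosen with earlier results of these data known. The CTCTC search and 2 sets of alternatives, other distances below the IDR cutoff and all those for the other pathway lists, were chosen after seeing the data.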

Additional observations from a re-analysis of the deposited data

How the results depend on the processing

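The number of the 9 genes with an IDR summit stayed between 6 and 9 under every alternative run, with 6 for windows from 2000 bp upstream, 9 from 10000 bp upstream and 6 among the 1765 strongest IDR regions, beside 17.0%, 32.7% and 14.1% of all genes. Of the 18 summits, 8 were among those 1765. Taking only the 3531 strongest regions of 1 replicate gave 14 summits with replicate 1 and 17 with replicate 2, each at 7 genes. Of all genes, 23.1% and 23.9% held a summit in these 2 lists. Own promoter windows held a summit at 1 gene with 500 bp upstream, beside 9.61% of all genes. With 2000 bp they did so at 5 genes, beside 15.6%. Among as many strongest regions of each replicate as there are IDR regions, 11 summits were found in both. The hypoxia response core was present at 2 summits within 25 bp, at 9 within 100 bp, where 59.8% of all IDR summits held it, and at 2 of the 8 among the strongest 1765, where 47.2% held it. Within 100 bp GTAAACA was present at 3, beside 3.85% of all. Candidates below the cutoff found in both numbered 41 with summits up to 250 bp apart, beside 47.8% of all. Ligand genes with a summit numbered 1 from 2000 bp upstream, 1 among the strongest 1765 and 1 to 2 with 1 replicate. DAF-16 targets numbered 2 among the strongest 1765 and 6 to 7 with 1 replicate. Of all genes, 17.0% held a summit from 2000 bp upstream, 14.1% among the strongest 1765 and 23.1% to 23.9% with 1 replicate. Among the strongest 1765, daf-16 had 3 and daf-2 had 0, and from 2000 bp upstream daf-18 had 0. The cause of these differences was not tested. Of 45 alternatives for single genes, 13 moved the count by more than 1.5 times or to or from 0. Among these, age-1 and sgk-1 each had 1 summit with windows from 10000 bp upstream.

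No paired analysis was possible because there is 1 group. The files give no depth, so a gene without a region, such as age-1 or sgk-1, is one where none passed at these libraries' unknown depth.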
